A study of Mus musculus with 36 samples.

Results

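The genes described here are 38 photoreceptor and phototransduction genes, taken by their official symbols from the 55487 genes of the gene count table. They cover the rod and cone light response, the structure of the outer segment, the transcription factors of photoreceptors, and a few chaperones and retinoid handling genes. All 38 were found in the table and all 38 were expressed in retina. The data are bulk RNA-seq of mouse retina, unmyelinated optic nerve (UON) and myelinated optic nerve (MON), with 12 libraries for each tissue and 36 in all.

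All mice were C57BL/6, 2 to 4 months old. Each tissue had 6 groups. They were naïve mice (0 D), crush of the optic nerve on 1 side sampled at 3 D and 2 W, and the glaucoma model, in which microbeads were injected into the anterior chamber of 1 eye, sampled at 3 D, 2 W and 6 W. Naïve tissue came from animals that were untreated on both sides. Each group was 2 libraries, 1 of RNA from 2 female mice and 1 of RNA from 2 male mice, joined in equal amounts. Retina, UON and MON were taken from every mouse. The pools of 1 treatment, time and sex thus come from the same mice in all 3 tissues. A pool therefore stands for its mice and its sex together, and p-values measure only the spread between such pools.

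Photoreceptors are the light-sensing neurons of the outer retina. In rods and cones, light activates an opsin, which switches on the G protein transducin, and transducin releases the block on a phosphodiesterase that breaks down cGMP. The fall in cGMP closes cation channels in the outer segment, and arrestins, a receptor kinase and calcium-regulated guanylate cyclases return the cell to the dark state. Photoreceptors are by far the most numerous neurons of the mouse retina, most of them rods, while optic nerve crush and raised eye pressure are models of injury to retinal ganglion cells, whose axons form the nerve.

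The library totals were 19.9 to 56 M estimated counts in retina and 16.2 to 78.1 M over all 36 libraries. Y-linked and X inactivation transcripts matched the labelled sex in 36 of 36 libraries. No 2 libraries were alike enough to be 1 library deposited in duplicate, since at most 0.701% of the genes with over 20 counts had equal counts in any pair. Levels are given as CPM, counts brought to a common library size with edgeR's TMM factors, where libraries are compared. They are given as TPM, which allow for transcript length as well, where genes are compared. A gene was called changed where its log2 fold change was beyond 1 and its adjusted p was below 0.05 (edgeR's quasi-likelihood test with Benjamini-Hochberg adjustment over every gene tested), and it passed at any fold where only the p met its limit.

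The 38 genes together held 9.14 to 10.7% of all TPM in the 12 retina libraries. In naïve retina the highest levels belonged to the rod transduction genes Pde6g, the inhibitory subunit of the rod phosphodiesterase, at 18194 ± 351 TPM (SD, n = 2 pools), and Gnat1, the rod transducin alpha subunit, at 17618 ± 272 TPM. These 2 levels were closer to each other than to the next gene, Sag, rod arrestin, at 9661 ± 126 TPM. Gngt1, the rod transducin gamma subunit, stood at 5382 ± 219 TPM. The catalytic subunits of the rod phosphodiesterase were lower, with Pde6b at 2160.3 ± 87.8 TPM and Pde6a at 247 ± 17.0 TPM. The rod channel subunits Cngb1 and Cnga1 stood at 1271 ± 283 and 553 ± 27.8 TPM, and Slc24a1, the sodium, calcium and potassium exchanger of rods, at 386 ± 37.2 TPM.

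Gnb1 and the genes that end the light response spanned a wide range. Gnb1, the transducin beta subunit of rods, which many other cells also use, was at 2820.4 ± 139 TPM, and Rcvrn, the calcium sensor recoverin, at 3278 ± 63.2 TPM. Grk1, the kinase that phosphorylates light-activated opsin, was at 213 ± 30.0 TPM. Among the guanylate cyclase genes, the activators Guca1a and Guca1b, at 5226 ± 155 and 3495 ± 173 TPM, lay far above the cyclases they act on, Gucy2e at 47.0 ± 2.15 and Gucy2f at 24.3 ± 2.72 TPM. The outer segment genes Rom1 (6279 ± 72 TPM) and Prph2 (5174 ± 103 TPM), which encode partner proteins of the disc rim, differed by more than the SD of either. Prom1, needed for disc formation, was at 507 ± 31.3 TPM and Rp1, a microtubule protein of the outer segment, at 348 ± 42.1 TPM.

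Cone genes were lower as a group. The highest was the short-wave opsin Opn1sw at 904 ± 15.9 TPM, followed by the beta subunit Gnb3 at 645 ± 21.4 TPM, the middle-wave opsin Opn1mw at 555 ± 24.6 TPM and cone arrestin, Arr3, at 475 ± 24.4 TPM. Cone transducin gamma and alpha, Gngt2 and Gnat2, were at 358 ± 13.4 and 243 ± 13.1 TPM. The cone phosphodiesterase genes Pde6h and Pde6c were at 163 ± 1.07 and 49.3 ± 0.737 TPM. The cone channel genes Cngb3 (12.2 ± 3.25 TPM) and Cnga3 (5.66 ± 0.353 TPM) were the lowest of all 38. Among the remaining genes, Unc119, a trafficking chaperone of transducin, was at 4884 ± 331 TPM, Aipl1, a chaperone of the phosphodiesterase, at 1219 ± 70.8 TPM, and Rdh12, a retinal reductase, at 874 ± 24.7 TPM. The synaptic calcium sensor Cabp4 and the retinoid transporter Abca4 were at 373 ± 73.3 and 212 ± 19.8 TPM. Gene by gene levels in all 12 retina libraries are shown in the plot of TPM by role.

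**Figure D1:**
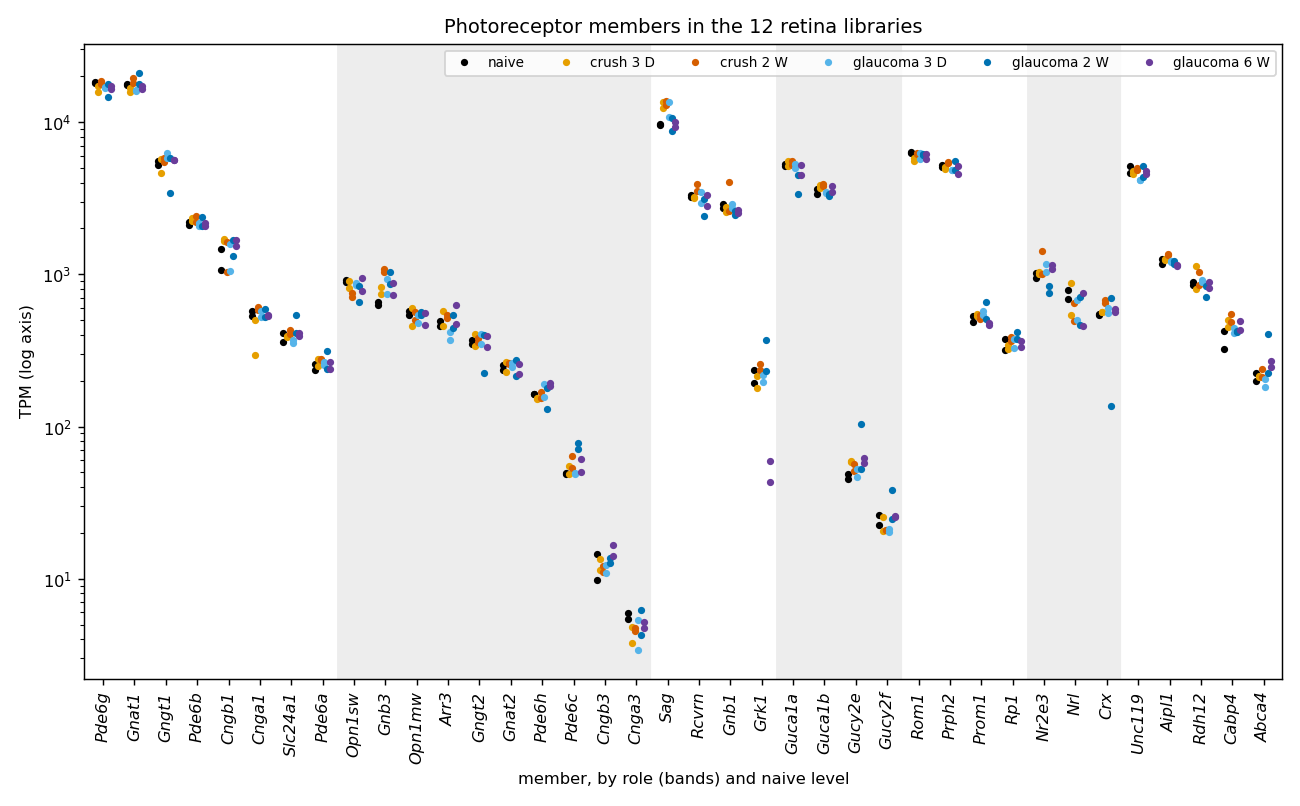
TPM of the 38 genes (log axis) in each of the 12 retina libraries, with genes in bands by role and ordered by naïve level, and 1 point for each library coloured by group. Points of a gene lie close together for most genes, from about 18194 TPM (Pde6g, naïve mean) to 5.66 TPM (Cnga3, naïve mean), and Grk1 and Crx each have points far under the others.

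The 3 transcription factor genes were Nr2e3, which represses cone genes in rods (980.3 ± 53.2 TPM), Nrl, which sets rod identity (734 ± 69.8 TPM), and Crx, the homeobox factor of rods and cones (543 ± 6.74 TPM). CRX binds motifs with the core TAATCC, and NRL binds motifs of the MAF family that hold TGCTGA. These letters were searched on both strands in the RefSeq promoter windows of GRCm38.p6, each of 300 bases (250 before and 50 after a gene's start), which were at hand for 27 of the 38 genes. TAATCC was found for 12 of the 27 genes (44.4%), and in 38.7% of their 31 windows, while 7.06% of all 32851 windows hold it. TGCTGA was found for 7 of the 27 (25.9%), and in 22.6% of their windows, while 19.5% of all windows hold it. In 11 genes the TAATCC match lay within the 125 bases before the start. Both motifs stood in 1 window for Sag and for Aipl1. A match is a description of the letters and not a measured binding site.

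The stretches of up to 150 bases that end at the RefSeq start, or at the first annotated exon base, are given for 6 genes, 5 of them to show where the CRX core lies in the promoters of photoreceptor genes and the last, Grk1, because the largest change in retina was its own and its stretch holds neither motif. Sag is read from chr1:87803530-87803679 (plus strand), Crx from chr7:15879969-15880105 (minus strand), Cngb1 from chr8:95306586-95306735 (minus strand), Gucy2e from chr11:69237037-69237172 (minus strand), Guca1a from chr17:47400607-47400756 (minus strand) and Grk1 from chr8:13404931-13405080 (plus strand). Each is written from 5′ to 3′ on the strand of its gene, and capitals mark TAATCC or its reverse complement GGATTA.
Sag: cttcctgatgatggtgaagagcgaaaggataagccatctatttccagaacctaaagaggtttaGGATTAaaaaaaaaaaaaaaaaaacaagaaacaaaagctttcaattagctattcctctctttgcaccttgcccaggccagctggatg
Crx: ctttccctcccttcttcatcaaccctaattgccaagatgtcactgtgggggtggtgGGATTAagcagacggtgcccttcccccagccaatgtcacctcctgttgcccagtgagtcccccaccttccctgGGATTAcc
Cngb1: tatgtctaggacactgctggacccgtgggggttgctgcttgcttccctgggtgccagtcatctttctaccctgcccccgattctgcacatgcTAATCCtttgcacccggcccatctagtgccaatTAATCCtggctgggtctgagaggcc
Gucy2e: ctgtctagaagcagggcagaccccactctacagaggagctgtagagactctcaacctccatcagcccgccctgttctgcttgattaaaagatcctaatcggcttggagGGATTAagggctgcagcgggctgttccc
Guca1a: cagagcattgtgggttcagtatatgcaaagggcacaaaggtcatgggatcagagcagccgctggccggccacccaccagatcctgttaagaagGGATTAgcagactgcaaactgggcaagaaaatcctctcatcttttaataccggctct
Grk1: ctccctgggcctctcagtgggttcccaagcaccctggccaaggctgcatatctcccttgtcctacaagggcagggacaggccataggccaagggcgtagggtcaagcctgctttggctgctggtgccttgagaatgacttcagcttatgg

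Crx and Cngb1 each hold 2 copies of the core in these stretches, and the Sag copy starts 87 bases before the gene's start.

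Across the 12 retina libraries the photoreceptor genes kept narrow ranges. In 32 of 38 genes the highest CPM was less than 2 times the lowest, with a median ratio of 1.55 over the 38, and the pools of 1 group differed by a median ratio of 1.09. The 6 genes with a wider range were Crx (9.46 times), Grk1 (8.17), Gnb1 (2.42), Gucy2e (2.28), Cnga1 (2.22) and Nr2e3 (2.19). Gnat1 shows the usual pattern, at 23493 CPM in the female and 22316 in the male naïve pool, 20660.3 and 19164 at crush 3 D, 25091 and 22828 at crush 2 W, 19881 and 20874 at glaucoma 3 D, 22776 and 23935 at glaucoma 2 W, and 19698 and 21581 at glaucoma 6 W. Both crush 3 D pools and both pools of glaucoma 3 D and 6 W lay under the naïve pools, and those of the other groups overlapped them. Pde6b varied still less, from 3197 CPM at glaucoma 6 W (female) to 3815 CPM at crush 2 W (male), around a median of 3528 CPM.

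Injury of the nerve or of the eye was compared with naïve retina in 5 contrasts, each of 2 pools against 2, and the 38 genes are set beside the share of all genes called. After crush, 0 of 38 genes were called at 3 D, where 0.0221% of 22671 genes were called, and 0 of 38 at 2 W, where 0.313% were called. In the glaucoma model, 0 of 38 were called at 3 D (0.00429% of 23301 genes), 0 of 38 at 2 W (0% of all genes), and 1 of 38, Grk1, at 6 W (0.00858%, 2 genes in all). At an unadjusted p under 0.05 the counts were 6 of 38 at crush 3 D (6.34% of all genes), 5 at crush 2 W (8.99%), 2 at glaucoma 3 D (6.09%), 8 at glaucoma 2 W (6.29%) and 2 at glaucoma 6 W (5.67%). DESeq2 also called 0 members in the first 4 contrasts, where it called 0.649, 1.49, 0.684 and 0.474% of all genes, and Grk1 alone at glaucoma 6 W, where it called 0.517%. In bulk retina, fewer cells of a type and less RNA per cell cannot be told apart.

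The shifts of the 38 genes as a set were small. Their median log2 fold change was -0.09 at crush 3 D, 0.07 at crush 2 W, -0.08 at glaucoma 3 D, -0.12 at glaucoma 2 W and -0.10 at glaucoma 6 W, while the median of all genes tested lay between -0.00 and 0.01. At crush 3 D, 8 of 38 lay above 0 (50.9% of all genes), and at crush 2 W 29 of 38 did (50.6%). At glaucoma 3 D, 2 W and 6 W the counts above 0 were 9, 12 and 11 of 38, against 49.5, 51.2 and 50.7% of all genes. On the log2(TPM + 1) scale the medians moved to 0.02 at crush 3 D and to between -0.02 and -0.00 in the glaucoma contrasts. The medians of all genes on that scale were 0.09 at crush 3 D, 0.01 at crush 2 W, and 0.03, 0.11 and 0.08 at glaucoma 3 D, 2 W and 6 W. The sign of the member median at crush 3 D thus depends on the scale. At crush 3 D and in the glaucoma contrasts the member median lay under that of all genes on both scales. Leaving out single libraries moved the crush 2 W median to between -0.00 (without the female crush pool) and 0.13 (without the male crush pool), and the glaucoma 2 W median was -0.03 without the male glaucoma pool. The 12 libraries share 1 pair of naïve pools, so the 5 contrasts are not independent of each other.

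**Figure D2:**
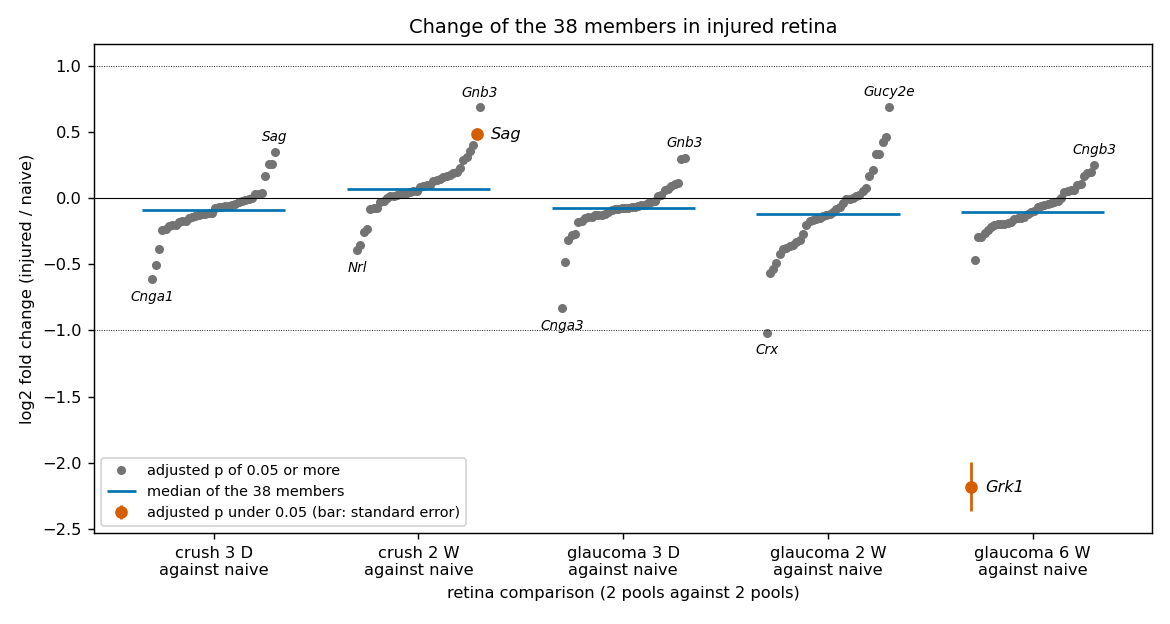
Log2 fold change of each of the 38 genes in the 5 retina contrasts with naïve (2 pools against 2 pools), 1 point for each gene, with the median as a line and the standard error drawn where the adjusted p was under 0.05. Medians lie between -0.12 and 0.07, and the point at -2.18 at glaucoma 6 W is Grk1.

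The comparison with retinal ganglion cell markers shows the size of the response in the same libraries. The summed level of 8 ganglion cell markers was 792 and 708 TPM in the naïve pools, 472 and 410.4 TPM at crush 3 D, 351 to 684 TPM in the 6 glaucoma pools, and 135 and 142 TPM at crush 2 W, and 5 of the 8 were called lower there, with a median log2 fold change of -3.58. Markers of bipolar cells, the neurons that receive photoreceptor input, summed to 1917 to 2459 TPM over the 12 libraries, and 0 of 12 were called in any of these 5 contrasts. The 12 amacrine and horizontal cell markers summed to 829.5 and 765 TPM in naïve retina and to 443 and 385 TPM at crush 2 W, where 1 of the 12, Calb2, was called lower (-1.92). These 12 also summed to 207 (female) and 123 TPM (male) in naïve MON, so their transcripts are not confined to the retina. The part of ganglion cells in the retina sums of this list was not tested.

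Sag rose after crush. The levels were 9988 (female) and 9488 CPM (male) in naïve retina, 12984 and 11833 CPM at crush 3 D, and 14239 and 13284 CPM at crush 2 W. All 4 crush pools lay above both naïve pools, and both crush 2 W pools lay above both crush 3 D pools. At 2 W the log2 fold change was 0.49 (SE 0.045, adjusted p = 0.0177 by edgeR), 1 of the 76 genes (0.335%) that passed at any fold, and at 3 D it was 0.35 (adjusted p = 0.128). The adjusted p at 2 W was 0.0842 with limma on log2(TPM + 1), 0.170 when all 12 retina libraries were fitted together and 0.0534 without the female naïve pool, with log2 fold changes of 0.47 to 0.50 when any library was left out.

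In the glaucoma model Sag stood at 13104 and 10929 CPM at 3 D, 10756 and 7849 CPM at 2 W, and 9573 and 9260.3 CPM at 6 W. At 3 D both pools lay above the naïve pools, with a log2 fold change of 0.30 (adjusted p = 0.842), and at 6 W the ranges of naïve and injected pools overlapped. The direct comparison of crush with glaucoma at 2 W gave 0.58 for Sag (SE 0.119, adjusted p = 0.158 by edgeR). Sag passed at any fold in this comparison by DESeq2, so passing depends on the tool, and neither tool called it.

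Gnb3, the beta subunit of cone transducin, which some bipolar cells also use, had the highest fold change of the 38 at crush 2 W. Gnb3 had a median of 82.3% of its retina counts on ENSMUST00000129251, a transcript annotated as a retained intron and not as coding. Its levels were 639 and 587 CPM in naïve retina, 719.7 and 658 CPM at crush 3 D, 988 and 999 CPM at crush 2 W, and 652 to 946 CPM in the 6 glaucoma pools. Both crush 2 W pools lay above the other 10. The log2 fold change of 0.69 (SE 0.0929) had an adjusted p of 0.0541 with edgeR's test, just over the limit, and Gnb3 passed together with Sag by DESeq2. Opn1sw moved the other way, from 1157 and 1036 CPM in the naïve pools to 844 and 883 CPM at crush 2 W (log2 fold change -0.35, adjusted p = 0.317), without passing.

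The largest of all fold changes of the 38 genes in these 5 contrasts belonged to Grk1 at glaucoma 6 W. Grk1 was at 826 (female) and 964 CPM (male) in naïve retina, 845 and 709.7 CPM at crush 3 D, 999 and 1068 CPM at crush 2 W, 863 and 825 CPM at glaucoma 3 D, and 944 and 1335 CPM at glaucoma 2 W. At glaucoma 6 W it was at 163 CPM in the female and 235 CPM in the male pool, under every one of the other 10 libraries. The log2 fold change against naïve was -2.18 (SE 0.185, adjusted p = 0.0418 by edgeR), and against glaucoma 3 D it was -2.10 (SE 0.195, adjusted p = 0.00546), where 0.0121% of 24693 genes were called. Without the sex term the adjusted p against naïve was 0.0604, and without the female naïve pool it was 0.0727, with log2 fold changes from -2.34 to -2.04 when any library was left out. Against glaucoma 3 D, a fit of only the libraries compared gave an adjusted p of 0.228.

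Other values of the Grk1 locus were read beside this one. Grk1 lies at chr8:13405081-13421951 of GRCm38, plus strand, and its main transcript, ENSMUST00000033827, has 7 exons and 7425 bases, of which the last exon, chr8:13415954-13421945, makes up 5992. This transcript held a median of 99.6% of the gene's counts, with 5709 counts in the female and 6218 in the male pool at 6 W, of 5822 and 6306 for the gene, while the other 10 libraries had 17470 to 56585 counts for the gene. At crush 3 D in the male pool only 22.9% of the counts were given to it and the rest to ENSMUST00000209909, a coding transcript of 7431 bases that was at 0 in the other 11 libraries, while the gene as a whole stayed at 709.7 CPM. A neighbouring gene within 30000 bases, Tfdp1, had 1101 and 858 counts at 6 W and 582 to 1987 counts over all 12 libraries. Whether the low value at 6 W arises over the whole transcript or in part of it was not tested, since read positions were not analysed here.

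Genes that work with Grk1 were near their naïve levels at 6 W. Rcvrn, which restrains the kinase, was at 1516 and 1870.1 CPM against 2009.5 and 1868 CPM in naïve retina, and Sag, which binds the phosphorylated opsin, was at 9573 and 9260.3 CPM against 9988 and 9488 CPM, so the ranges of both genes overlapped those of naïve retina. The female 6 W pool also held 161 TPM of 9 lens and surface epithelium markers, while the male 6 W pool held 0.555 TPM and the other 10 libraries 0.645 to 5.25 TPM. Grk1 was low in both 6 W pools, and the part of these markers in the Grk1 value was not tested.

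**Figure D3:**
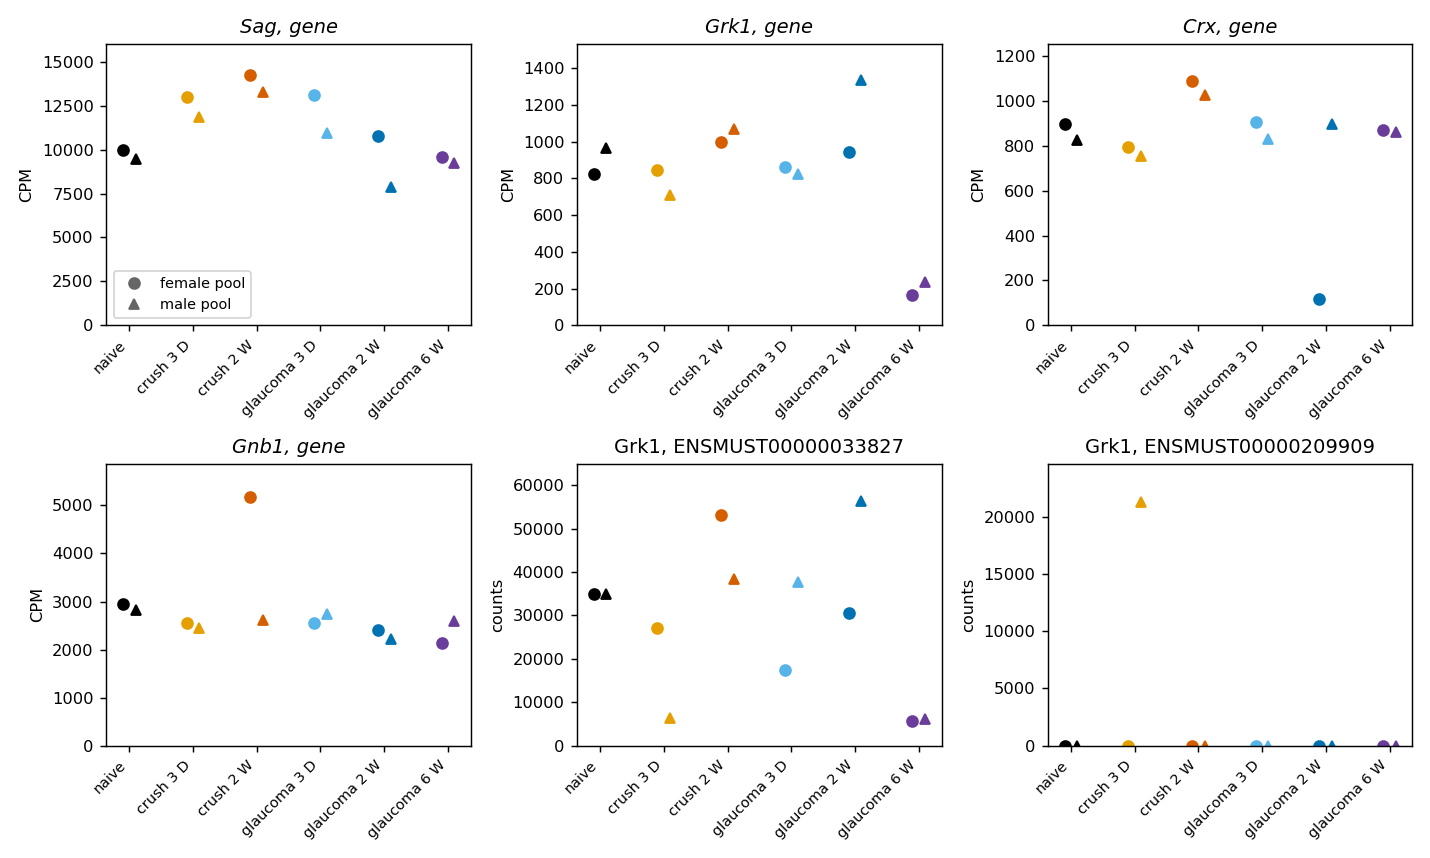
Levels of Sag, Grk1, Crx and Gnb1 in the 12 retina libraries as CPM of the gene, and counts of 2 Grk1 transcripts, with groups on the x axis and 1 point for each pool (circles female, triangles male). Sag is highest in the crush 2 W pools (14239 and 13284 CPM), Grk1 is low in both glaucoma 6 W pools (163 and 235 CPM), and Crx (115 CPM, glaucoma 2 W) and Gnb1 (5175 CPM, crush 2 W) stand apart in 1 female pool each.

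In Crx, Gnb1 and Cnga1 a single pool set 1 end of the range. Crx stood at 897 and 824 CPM in naïve retina, 796 and 756 CPM at crush 3 D, 1091 and 1026 CPM at crush 2 W, 905 and 832 CPM at glaucoma 3 D, and 870.1 and 863 CPM at glaucoma 6 W. At glaucoma 2 W the female pool was at 115 CPM (3757 counts) and the male pool at 896 CPM, a ratio of 7.76. This is the only gene of the 38 whose pools of any group differed by more than 2 times. The log2 fold change at glaucoma 2 W was -1.02 (SE 0.704, adjusted p = 0.805), and it was 0.10 without the female pool and -2.94 (adjusted p = 0.00329) without the male pool, which leaves the female pool alone in its group, so the female pool decides the value. In it the main transcript, ENSMUST00000044434, held 40.9% of the gene's counts, against a median of 83.3% over the libraries. Such shares also varied widely in members with narrow gene ranges, from 33.5 to 98.6% in Gnat1 and from 0.748 to 88.3% in Unc119. A low share is thus not particular to a low gene level. In the female pool the neighbouring Crxos had 634 counts, within its range of 378 to 1361. Nr2e3 and Nrl were at 871 and 498 CPM in the same pool.

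Gnb1 stood at 5175 CPM (276770 counts) in the female crush 2 W pool and at 2614 CPM in the male pool, against 2947 and 2833 CPM in naïve retina and 2134 to 2748 CPM in the other 8 libraries. Its share on the transcript ENSMUST00000030940 was 40.3% in the high pool, the highest of the 12, against a median of 20.8%. Shares varied as widely in members with narrow gene ranges, as given above for Gnat1 and Unc119. Cnga1 was at 416 CPM in the female crush 3 D pool and 729 CPM in the male pool, with 696 to 924 CPM in the other 10. Its log2 fold change at crush 3 D was -0.61 (SE 0.195, adjusted p = 0.694), the lowest of the 38 there, and it was -1.02 (adjusted p = 0.0259) without the male pool, which leaves the female pool alone in that group, its spread taken from the other groups. With n = 2 pools, an animal and a library cannot be told apart in these values.

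The other genes at the ends of a contrast did not pass. Nrl was the lowest at crush 2 W, with a log2 fold change of -0.39 (SE 0.231, adjusted p = 0.701). Its levels by pool were 874 and 926 CPM (naïve), 815 and 557 (crush 3 D), 567 and 813 (crush 2 W), 531 and 796 (glaucoma 3 D), 498 and 762 (glaucoma 2 W) and 492 and 874 CPM (glaucoma 6 W). Of the 10 injured pools 9 lay under both naïve pools, the exception being the male pool of glaucoma 6 W, and the pools of a group were a median of 1.48 times apart, the widest of the 38. At glaucoma 3 D the ends were Cnga3 at -0.83 (SE 0.293, adjusted p = 0.746) and Gnb3 at 0.31 (adjusted p = 0.838). At glaucoma 2 W the highest was Gucy2e at 0.69 (SE 0.226, adjusted p = 0.782), and at 6 W Cngb3 at 0.25 (SE 0.206, adjusted p = 0.885).

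Cone genes gave no passing value in any of the 5 contrasts by edgeR's test. Opn1sw stood at 1034 and 916 CPM at crush 3 D, 992 and 1014 CPM at glaucoma 3 D, 769.6 and 868 CPM at glaucoma 2 W, and 1048 and 882 CPM at glaucoma 6 W. Opn1mw was at 369.6 and 374 CPM in naïve retina, 289 and 376 at crush 3 D, 344 and 370.4 at crush 2 W, 299 and 357 at glaucoma 3 D, 355 and 323 at glaucoma 2 W, and 340.4 and 289 CPM at glaucoma 6 W. Gnat2 ranged from 245 to 311 CPM and Arr3 from 274 to 432 CPM, with injured pools on both sides of the naïve pools in both genes. The summed TPM of the 10 cone genes was 7.45 ± 0.228% of that of the 8 rod transduction genes in naïve retina. It was 8.24 ± 0.560% at crush 3 D, 7.83 ± 0.438% at crush 2 W, 7.96 ± 0.00299% at glaucoma 3 D, 7.83 ± 0.172% at glaucoma 2 W and 8.12 ± 1.33% at glaucoma 6 W (SD, n = 2 pools each). The single pools ranged from 7.18 to 9.06%, both at glaucoma 6 W.

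Outer segment and chaperone genes gave no passing value in these contrasts by edgeR's test. Prom1 ranged from 744 to 992 CPM, with both 6 W pools (744 and 795 CPM) under the other 10. Unc119 was at 2788 (female) and 3690 CPM (male) in naïve retina, and the 10 injured pools spanned 2857 to 3773 CPM, around that same spread. Rom1 was at 5495 and 5334 CPM in naïve retina and at 4684 and 4507 CPM at crush 3 D, where it gave a log2 fold change of -0.23 (adjusted p = 0.474), and Pde6g gave -0.24 (adjusted p = 0.352). Group medians by role lay between -0.24 (the 4 genes of arrestin, kinase, recoverin and beta subunit, glaucoma 6 W) and 0.28 (the same 4, crush 2 W), apart from -0.56 for the 3 transcription factors at glaucoma 2 W, where 1 of the 3 is Crx.

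Direct comparisons between injured groups, fitted over all 12 retina libraries, gave the same picture. Crush and glaucoma did not differ by a called member at 3 D (0 of 38, 0.0081% of all genes called) or at 2 W (0 of 38, 0.113%). At 2 W, 9 of 38 had an unadjusted p under 0.05 (8.12% of all genes) and 31 of 38 lay higher after crush (47.7% of all genes). The ends there were Crx at 1.21 (SE 0.620, adjusted p = 0.641) and Gucy2f at -0.44 (SE 0.170, adjusted p = 0.578). At 3 D they were Arr3 at 0.36 (SE 0.171) and Cnga1 at -0.51 (SE 0.218), both with an adjusted p of 1. Crush 2 W against crush 3 D called 0 of 38 (0.0445%), with 34 of 38 higher at 2 W (50.1% of all genes), from Opn1sw at -0.17 (SE 0.136, adjusted p = 1) to Cnga1 at 0.69 (SE 0.218, adjusted p = 0.708). Male and female pools differed by 0 of 38 called members (0.0324%), from Gngt2 at -0.24 (SE 0.134) to Nrl at 0.35 (SE 0.158), both with an adjusted p of 1.

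The male glaucoma 2 W pool stood apart in a way that followed transcript length. Relative to the mean of the other 11 retina libraries, 17 of the 19 genes with the shorter main transcripts (at most 2309 bases) were lower in it, with a median log2 difference of -0.29. Of the 19 with longer transcripts (2328 bases or more), 6 were lower, with a median of 0.14. The rank correlation of the difference with length was 0.68 over the 38 genes, and 0.52 over the 10565 genes with at least 10 CPM. In the other 11 libraries it lay between -0.26 and 0.11 over the 38 genes and between -0.36 and 0.30 over all these genes. These correlations are across genes of 1 library and are a description. Gngt1 (2039 CPM, against 3008 to 4005 CPM in the other 11) and Guca1a (1437 CPM, against 2030.5 to 2802 CPM) are examples of short transcripts. Gucy2e (237 CPM, against 104 to 148 CPM), Grk1 (1335 CPM, against 163 to 1068 CPM) and Abca4 (1174 CPM, against 623 to 849 CPM) are long ones. Each glaucoma 2 W value above rests on this pool and on the female pool with the low Crx, and the part of transcript length in those values was not tested.

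**Figure D4:**
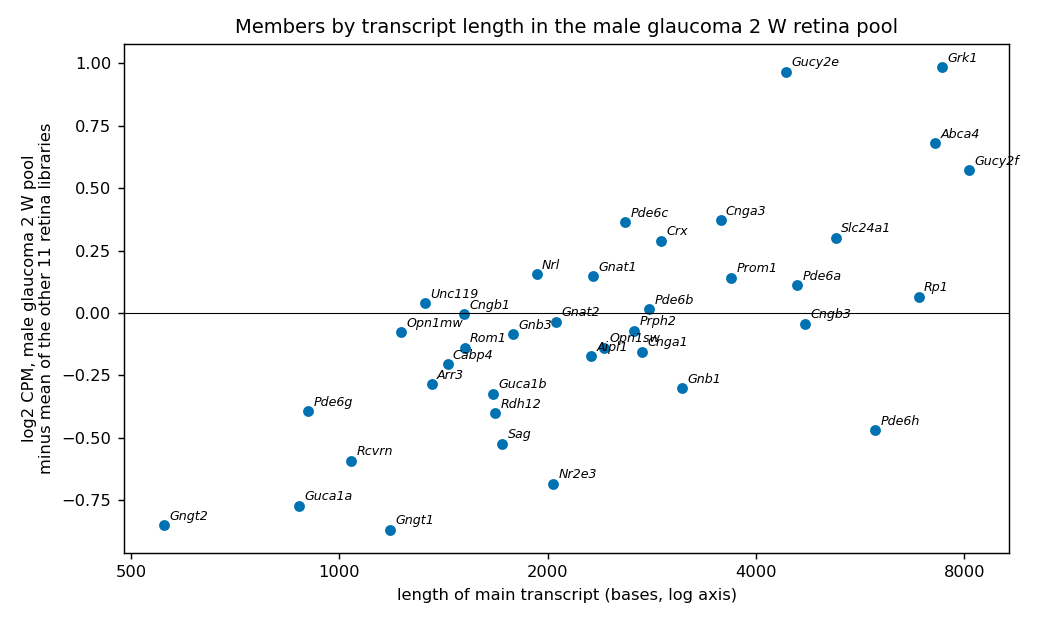
Log2 CPM of each of the 38 genes in the male glaucoma 2 W retina pool minus its mean in the other 11 retina libraries (y axis) against the length of its main transcript in bases (log x axis), with 1 labelled point for each gene. Most short transcripts lie below 0 and most of the longest above it, with a rank correlation of 0.68.

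Another 42 genes of photoreceptors and the visual cycle, among them Rbp3, Rgs9, Pdc, Tulp1 and Impg1, were read as the rest of the pathway. Their summed level was 17725 to 23613 TPM over the 12 retina libraries. In each of the 5 contrasts with naïve retina, 0 of the 42 passed at any fold. Their median log2 fold changes were 0.01 at crush 3 D, 0.11 at crush 2 W, -0.02 at glaucoma 3 D, 0.10 at glaucoma 2 W and 0.02 at glaucoma 6 W. The lowest single value over the 5 contrasts was that of Slc24a2, at -1.15 at crush 2 W, which did not pass. The cells behind this value were not tested.

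Among naïve tissues the photoreceptor genes were all lower in nerve than in retina, a direction that came with their choice as genes of retinal cells. The fit held the retina libraries, so members near 0 counts in nerve passed the filter on low counts through their level in retina. The calls below are therefore given for the size of the difference and are no test of the members. All 38 were called lower in UON than in retina (13.5% of 23685 genes were called lower and 31.7% in either direction), with a median log2 fold change of -10.21 against -0.17 for all genes. All 38 were also called lower in MON (10.9% lower, 27.6% in either direction), with a median of -9.14 against 0.00. In both tissues the smallest difference was that of Gngt2, at -3.97 in UON (SE 0.298, adjusted p = 8.28e-05) and -2.86 in MON (SE 0.285, adjusted p = 0.000336). The largest fitted values belonged to genes at 0 counts in both naïve nerve pools, which give bounds only. Gucy2f in UON was at least 2624-fold lower than in retina and Cngb3 in MON at least 695-fold lower, with a floor of 3 counts over each pair of pools, and the fitted values of -15.02 and -12.95 are no bounds. With these genes at their bound the medians were again -10.21 and -9.14.

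Nerve levels were read as a percent of the naïve retina mean in CPM, as a check of retina RNA carried into the nerve samples. The median over the 38 genes was 0.0325 to 0.562% in the 12 UON libraries and 0.0273 to 0.259% in the 12 MON libraries. The middle library was at 0.0886% in UON and 0.110% in MON. For 12 genes taken here as the rod genes (the 8 rod transduction genes with Sag, Grk1, Nrl and Nr2e3) the ranges were 0.00326 to 0.536% and 0.0180 to 0.197%. Gnat1 was at 20.3 (female) and 5.33 CPM (male) in naïve UON, and at 39.6 and 4.69 CPM in naïve MON. The female pool was the higher in both naïve nerve segments.

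The highest of the 24 nerve libraries was the male UON pool at glaucoma 2 W, the library with the fewest counts (16.2 M), where Gnat1 was at 99.6 CPM, Sag at 50.1 CPM and Pde6g at 39.4 CPM. The lowest in UON was the male pool at crush 3 D, where 5 of the 12 rod genes had 0 counts, and the lowest in MON was the female pool at glaucoma 6 W. Markers of bipolar, amacrine and horizontal cells were also low, and those of ganglion cells were higher. The 12 bipolar markers had library medians of 0.150 to 1.20% of naïve retina in UON and 0.0172 to 1.06% in MON, and the 12 amacrine and horizontal cell markers 0.127 to 1.60% and 0.0375 to 3.65%. The 8 ganglion cell markers stood at 6.95 to 25.8% in UON and 5.38 to 16.1% in MON. A list of 10 Müller glia markers stood at 84.1 to 417%, and most of these genes are also used by astrocytes.

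**Figure D5:**
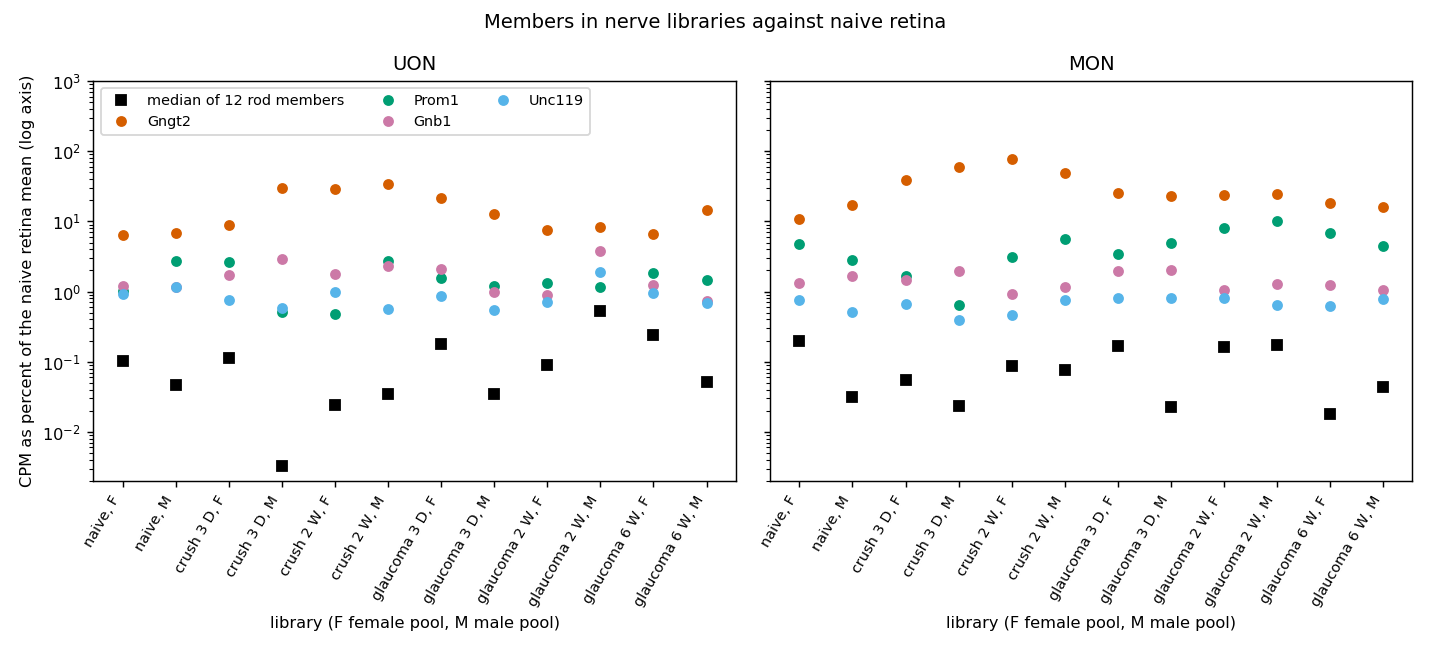
CPM in each nerve library as a percent of the naïve retina mean (log axis), UON and MON in separate panels, with libraries on the x axis (F female, M male pool), squares for the median of 12 rod genes and circles for Gngt2, Prom1, Gnb1 and Unc119. The rod median lies between 0.00326 and 0.536%, while Gngt2 lies between 6.39 and 78.5%.

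Within a nerve library, 8 members stood far above the rod genes. Relative to the median of the 12 rod genes in the same library, the median ratio over 24 libraries was 0.868 for Crx, which is not among the 12, with a range of 0 to 5.68. The 12 genes themselves lie around 1 by the way the ratio is built. The members with the largest ratios were Gngt2 (321), Prom1 (32.7), Gucy2e (26.0), Gnb1 (15.4), Abca4 (11.7), Unc119 (11.1), Rom1 (10.7) and Rdh12 (10.5). Gnb1, Gngt2, Gucy2e and Unc119 were above 3 times the rod median in all 24 libraries. The cells that hold these 8 transcripts in nerve were not tested.

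Between the naïve nerve segments, 9.63% of all genes were called and 6 of the 38 members were. This fit held the naïve retina libraries too, so members near 0 in nerve passed the filter on low counts through their level in retina. Abca4 was higher in UON, at 17.9 and 7.48 CPM against 1.97 and 2.52 CPM in MON, with a log2 fold change of 2.44 (SE 0.431, adjusted p = 0.0152). The other 5 were higher in MON, namely Cabp4 (-2.47, adjusted p = 0.0301), Rcvrn (-1.86, adjusted p = 0.0376), Cnga1 (-1.81, adjusted p = 0.0149), Gucy2e (-1.30, adjusted p = 0.0197) and Gngt2 (-1.11, adjusted p = 0.0472), all log2 fold changes of UON over MON by edgeR. Rdh12 passed at -0.96 (adjusted p = 0.0385). Cabp4, Rcvrn and Cnga1 rest on 3 to 118 counts in a library, and the count of called members went from 4 to 16 when single libraries were left out and was 1 in a fit of all 36 libraries and 2 with limma on log2(TPM + 1). The share of all genes called was not taken in these alternative fits, so their counts describe only how the calls move. The adjusted p of Rcvrn was 0.0568 by edgeR without the sex term. The ends of this contrast, Cngb3 at 4.71 (SE 2.16, adjusted p = 0.255) and Gucy2f at -6.69 (SE 1.81, adjusted p = 0.0767), are fits to genes at 0 counts in 1 of the segments and are no bounds.

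Gngt2 was the only member that was called after injury in nerve by edgeR's test. In MON it was at 12.2 (female) and 19.5 CPM (male) in naïve mice, 43.0 and 67.7 CPM at crush 3 D, 88.3 and 54.2 CPM at crush 2 W, and 17.8 to 28.4 CPM in the 6 glaucoma pools. All 4 crush pools lay above both naïve pools and all glaucoma pools. The log2 fold change was 1.89 at 3 D (SE 0.398, adjusted p = 0.0456), 1 of 33 members tested where 4.26% of 19988 genes were called, and 2.25 at 2 W (SE 0.409, adjusted p = 0.0394), 1 of 33 where 2.72% were called. The adjusted p was 0.226 at 3 D and 0.229 at 2 W without the female naïve pool and 0.118 and 0.108 without the male naïve pool, and at 3 D it was 0.103 without the male crush pool, with log2 fold changes of 1.5 to 2.63 in these fits. In 7 microglia and macrophage markers the summed level was 718 and 784 TPM in naïve MON, 2247 and 2883 TPM at crush 3 D, 4523 and 2322 TPM at crush 2 W, and 1043 to 2166 TPM in the glaucoma pools. Both Gngt2 and these markers were higher in the 4 crush pools than in the naïve pools, and the part of such cells in the Gngt2 value was not tested. Most other members were lower in MON at crush 3 D, where 3 of 33 lay above 0 (49.8% of all genes) and the log2 fold changes of the 8 rod transduction genes centred on a median of -1.21. By DESeq2, which called 12% of all genes there, Gnat1 (-1.44), Prph2 (-2.29), Guca1b (-2.42) and Prom1 (-1.73) were called lower beside the call of Gngt2, while edgeR called none of these 4. Gnat1 was at 39.6 and 4.69 CPM in the naïve pools, 9.58 and 2.89 CPM at crush 3 D, and 19.4 and 10.1 CPM at crush 2 W. The male naïve value of Gnat1 thus lay between those of the crush 3 D pools. The female naïve pool had the highest share of the rod genes among the 12 MON libraries (0.197% of naïve retina). The part of this pool in the lower values at crush 3 D was not tested.

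In UON Gngt2 was at 7.19 and 7.62 CPM in naïve mice, 10.1 and 33.4 CPM at crush 3 D, and 32.9 and 38.3 CPM at crush 2 W. The value of 2.24 at 2 W (SE 0.509) had an adjusted p of 0.429 with edgeR's test, where 0.0281% of all genes were called, and 0.00237 with DESeq2. No member was called in UON after crush at 3 D (0 of 35, 0% of all genes), or in UON (0 of 37, 0% at each time) and MON (0 of 36, 0% at each time) in the glaucoma model. The member medians in nerve were wide, from -1.40 (MON, glaucoma 6 W) to 1.73 (UON, glaucoma 2 W, where the male pool has the highest rod share). At these low counts the ends were fits to few counts, such as Cngb3 in UON, at 3.89 at crush 3 D (SE 3.01, adjusted p = 1) with 0 and 9 naïve counts and 40 and 20 counts after crush. For Cnga1, at 0 counts in both MON pools at glaucoma 6 W, the level was at least 40.4-fold lower than in naïve MON over a floor of 3 counts, with an adjusted p of 0.849.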

How the data were processed

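RNA-seq was measured in 36 libraries of naïve and injured mouse retina, UON and MON, sorted into 18 groups by their labels. The authors aligned reads with HISAT2 (2.2.1) to GRCm38 and assembled transcripts with StringTie (1.3.0). The deposited gene and transcript tables hold estimated counts, which the authors derived from coverage and transcript length, so a count is not exactly 1 read. The deposited TPM values are the authors' own StringTie output, and 25 TPM values below 0 were set to 0 here.

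Estimated counts were rounded and fitted per tissue and injury model with edgeR (4.0.16, R 4.3.3) by the quasi-likelihood test with group and sex as terms, after filterByExpr (minimum count 10, minimum total 15) and TMM scaling, in 23 contrasts. The sex term follows the design of the study, and in the fit of naïve tissues it also pairs the tissues of the same mice. It leaves 2 to 5 residual degrees of freedom. Benjamini-Hochberg adjustment was over all genes tested. DESeq2 (1.42.0), limma (3.58.1) on log2(TPM + 1), other scaling, no filter, other sets of libraries, no sex term and leaving out each library were alternatives. Fold changes are on the log2 scale.

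Tested on simulated data, edgeR recovered 37 of 100 genes changed by 2-fold and 82 of 100 changed by 4-fold for retina crush 2 W (21687 genes), and 18 and 78 of 100 for glaucoma 6 W (22261 genes). For naïve UON against retina (22121 genes) it recovered 9 and 70 of 100. Recovered means an adjusted p under 0.05 at any fold, without the log2 limit of a call, so recovery as calls could only be equal or lower. The simulated spread followed the trend over genes and not the spread of each gene. With 2 pools a group, most simulated 2-fold changes were thus not recovered. Recovery was not estimated for the photoreceptor genes alone, whose retina pools within a group differed by a median ratio of 1.09. Sag passed in retina at crush 2 W with a change under 2-fold. The smallest change detectable in these genes was not tested.

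The members and marker lists were chosen with earlier results of these data known. Genes named in the text are the extremes of each contrast, members that passed, and a set of representatives of each role shown in every retina library. Naïve libraries are shared between contrasts. Counting without strand can mix overlapping genes, and transcripts of 1 gene share reads.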

Additional observations from a re-analysis of the deposited data

How the results depend on the processing

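The pools of a group carry the number of their sex only, so the fit without a sex term stands for the fit without a replicate block. Without the block 0 members were called in retina at glaucoma 6 W, against 1 with it, and the counts of the other contrasts moved by less than 1.5 times. DESeq2 called 1 member in UON at crush 2 W, 5 in MON at crush 3 D, and 1 in MON at glaucoma 2 W and 6 W each, where the main counts were 0, 1, 0 and 0 and DESeq2 called 2.72, 12, 2.71 and 0.255% of all genes. Limma called 1 in UON at crush 2 W and 2 between naïve UON and MON (main count 6). In MON at crush 3 D, DESeq2's size factors gave 0 and no filter gave 4. Between naïve UON and MON, no filter gave 12 and a fit of all 36 libraries 1. For retina glaucoma 6 W against 3 D, a fit of only the compared libraries called 0, against 1. The cause of these differences was not tested. Among the alternatives the share of all genes called was taken for DESeq2 only. The counts of members under the other settings, and with a library left out, thus have no such share beside them and are not read as results about the members. Leaving out single libraries gave 0 to 1 called members in retina at crush 3 D, glaucoma 2 W and glaucoma 6 W and for crush against glaucoma at 2 W. It gave 0 to 4 in MON at crush 3 D, 0 to 1 in MON at crush 2 W, 37 to 38 for naïve UON and for naïve MON against retina, and 4 to 16 for naïve UON against MON. A library left out leaves its group with 1 pool, which is assumed to vary like the others. Gnb1 was called at 1.18 (adjusted p = 0.0276 by edgeR) for crush against glaucoma at 2 W without the male crush pool. Among the members named by the rule for named genes, directions turned for Crx at glaucoma 2 W (0.10 without the female pool, -2.94 without the male pool), for Cngb3 in UON at crush 2 W (0.10 without the male naïve pool, -6.31 without the female naïve pool), for Gucy2f in UON at glaucoma 2 W (-1.14) and 6 W (-0.49) without replicate 1 of those groups (9.45 and 7.27 without replicate 2), for Pde6h in MON at crush 2 W (0.032 with limma) and for Gucy2f between naïve UON and MON (0.068 without the female MON pool, -7.54 without the male MON pool). Outside that rule, chosen after their values were seen, Aipl1 (1.98 and -1.09) and Guca1a (9.003 and -1.64) were called in opposite directions between naïve UON and MON without the female and without the male MON pool. The nerve shares of all members had middle libraries at 0.0763 to 0.0896% in UON and 0.0808 to 0.111% in MON over TPM in place of CPM and either naïve pool as reference, and the 12 rod genes alone gave 0.0707% and 0.0649%. Few counts in nerve and 2 pools a group limit all of these values.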
